A study of Mus musculus with 16 samples.

Results

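Stromal matrix genes encode the collagens, proteoglycans, glycoproteins and basement membrane proteins laid down around the cells of the gut wall, together with an enzyme and inhibitors that control their turnover and the receptors of the PDGF growth factors that mark the cells making them. The 35 members were given by name and mapped to genes by their symbol. No threshold on a measured value picked them, but they were chosen with earlier results of these data known. All 35 were found among 37620 genes in the files and all 35 passed the filter on low counts, which left 16558 genes for testing. Timp1 passed it through irradiated libraries alone, of which 6 reached the filter's level of 1.04 counts per M, as did 0 unirradiated ones. A difference with irradiation was therefore built into its passing, and its values are a description. By role they fell into 5 fibrillar collagens, 3 chains of collagen VI, 2 fibril-associated collagens, 8 basement membrane genes, 4 small leucine-rich proteoglycans, 5 elastic fibre and adhesive glycoproteins, 2 matricellular proteins, 4 genes of the protease Mmp2 and the TIMP inhibitors, and 2 PDGF receptors.

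The tissue was the proximal jejunum, a stretch of small intestine, taken from CBA/J males (an inbred mouse strain) aged 8 weeks and read by RNA sequencing. The 16 libraries made up 4 groups of 4. Mice on a methionine-adequate diet and mice on a methionine-supplemented diet (300% in the design text) had each been given either 0 Gy or 8.5 Gy of gamma rays, and a period of 6 days is stated without saying whether it counts from the diet or from the irradiation. The groups carried no genetic change, and the labels do not name the animal behind a library, so p-values measure the spread between libraries. Whole tissue was sequenced, so a change in the number of stromal cells and a change in RNA per stromal cell cannot be told apart.

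Fibroblasts of the gut wall secrete fibrillar collagens as precursors, which are trimmed and crosslinked into fibres. Small proteoglycans such as decorin coat those fibres and set their spacing. Basement membranes, thin sheets of collagen IV, laminin and nidogen, lie under the epithelium and around vessels and muscle. Matrix metalloproteinases cut these proteins and TIMPs block the proteases. In irradiated intestine, excess matrix is known as a late form of injury.

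The upstream sequences of 3 members are shown because, among members with an entry in the sequence table, Timp1, Postn and Ogn had the largest log2 fold changes that passed the test on a diet, a choice made after their values were seen. They are the 250 bases before a RefSeq start (build GRCm38.p6), written 5′ to 3′ on the strand of the gene, with matches to any of the 4 motifs searched in capitals. Timp1 is shown at chrX:20869916-20870165 (+), Postn at chr3:54360857-54361106 (+) and Ogn at chr13:49607765-49608014 (+).
Timp1: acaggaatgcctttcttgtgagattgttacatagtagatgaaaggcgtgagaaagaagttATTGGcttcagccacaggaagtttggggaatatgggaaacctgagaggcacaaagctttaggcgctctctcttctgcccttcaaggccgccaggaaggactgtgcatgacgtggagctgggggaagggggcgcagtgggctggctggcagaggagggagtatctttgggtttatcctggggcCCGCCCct
Postn: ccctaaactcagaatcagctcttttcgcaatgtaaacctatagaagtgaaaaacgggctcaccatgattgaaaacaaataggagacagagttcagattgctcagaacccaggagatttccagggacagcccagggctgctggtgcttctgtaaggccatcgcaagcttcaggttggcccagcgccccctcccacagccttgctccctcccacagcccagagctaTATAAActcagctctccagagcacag
Ogn: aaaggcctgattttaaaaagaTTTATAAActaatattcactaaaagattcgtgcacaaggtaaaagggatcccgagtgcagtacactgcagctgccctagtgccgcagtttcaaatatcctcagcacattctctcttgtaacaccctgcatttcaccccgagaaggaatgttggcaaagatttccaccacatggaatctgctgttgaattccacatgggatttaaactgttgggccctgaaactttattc
The motifs were the TATA box (TATAAA), the GC box (GGGCGG), the CCAAT box (CCAAT) and the AP-1 site (TGANTCA), each on both strands. Postn had a TATA box whose first base lay 26 bases before the start, while in Ogn the match, which reads on both strands as overlapping copies, lay 227 bases before it. Timp1 had a GC box 8 bases and a CCAAT box 190 bases before the start. Of 27 starts of the 23 members with an entry, 3 held a TATA box (Col3a1, Ogn and Postn), 15 a GC box, 8 a CCAAT box and 1 an AP-1 site (Col6a1). Over all 32851 starts in the table, 12.37% held the TATA box, 32.74% the GC box, 33.85% the CCAAT box and 6.75% the AP-1 site. A match describes the letters alone, and Postn also has a second listed start, at chr3:54359017-54359266, without any of these motifs.

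Depth ran from 2.57 to 15.51 M (mega) counts per library, and 3 libraries had under 4 M. Within groups the correlation of log2 levels between libraries lay between 0.922 and 0.983. A library of the irradiated adequate group, replicate 4, stood apart. It had the highest level of its group for 30 of 35 members and the highest of all 16 libraries for 19. Its 35 members summed to 6161.5 CPM (counts per M of the scaled library total) against 3006.7 to 3631.6 CPM in the other 3 libraries of its group, and its 10 epithelial marker genes summed to 5562.7 CPM against 7016.6 to 8713.9 CPM. For this reason the values that rest on this group and changed most without that library are given both ways.

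**Figure D1:**
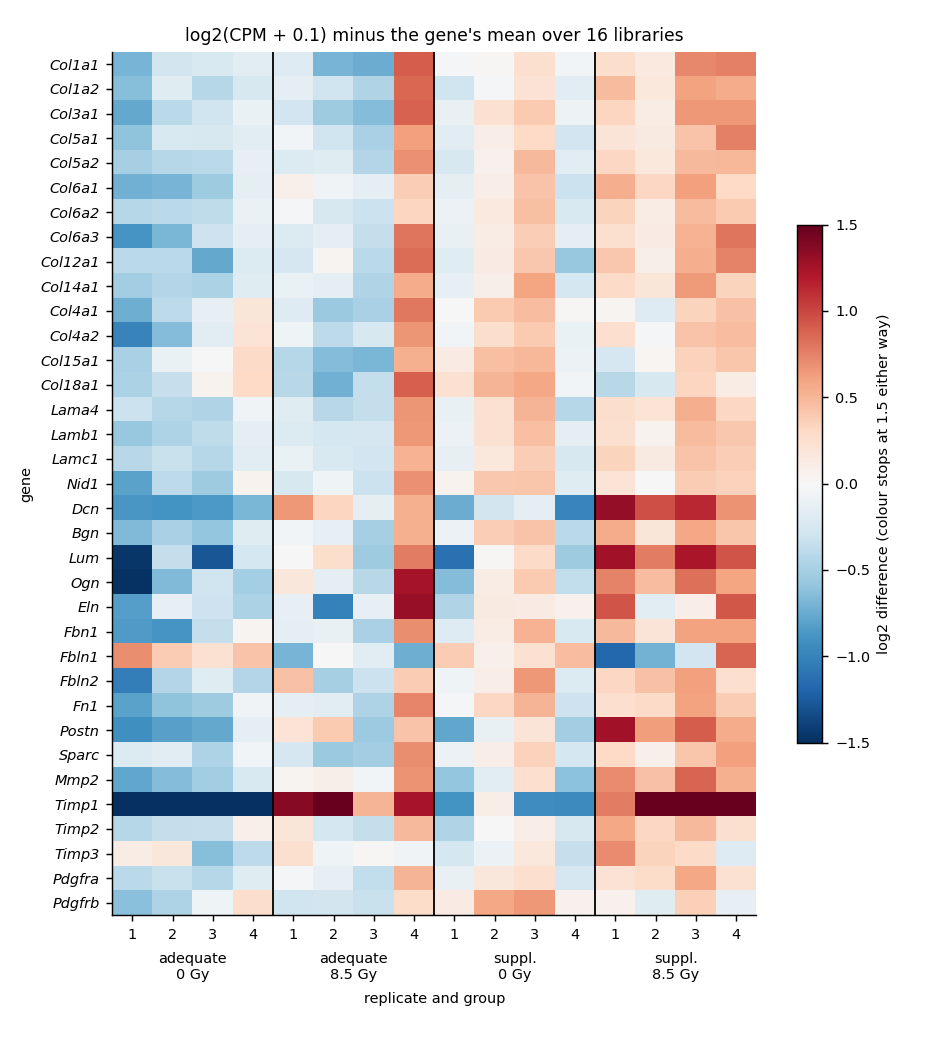
Level of each of the 35 genes (rows) in each of the 16 libraries (columns, by group and replicate), as log2(CPM + 0.1) minus the gene's mean over all libraries, with colours stopping at a difference of 1.5 either way. Replicate 4 of the irradiated adequate group is high for most genes, and the Timp1 row is low in the unirradiated adequate libraries and high in all irradiated ones.

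A small set of stromal matrix genes was higher after irradiation, and no member that passed the test was lower. On the adequate diet 5 of 35 were called higher (Col6a1, Dcn, Ogn, Mmp2 and Timp1) and on the supplemented diet 6 of 35 (Dcn, Lum, Postn, Mmp2, Timp1 and Timp2). A call means an adjusted p under 0.05 in the quasi-likelihood test of edgeR, adjusted by Benjamini-Hochberg over all 16558 genes. The background on the adequate diet was 7.13% of all genes called higher and 6.58% called lower. For the supplemented diet those shares were 8.03% and 7.21%. Dcn and Mmp2 were called on both diets, as was Timp1. Leaving Timp1 aside for the way it passed the filter, the counts were 4 and 5 of 34 members. With the response averaged over both diets, which uses all 16 libraries, 13 of 35 members (12 of 34 without Timp1) were called higher, against 15.7% of all genes, and 0 lower, against 15.3%. The adequate-diet count was 2 without unirradiated replicate 1 or 2 or irradiated replicate 4, and 3 without unirradiated replicate 3 or irradiated replicate 1. The averaged count was 8 without any 1 of replicates 1 and 3 of the unirradiated adequate group, replicate 4 of the irradiated adequate group, replicates 1 and 4 of the unirradiated supplemented group and replicate 3 of the irradiated supplemented group. The shares of all genes called in these fits with a library left out are not given here, so these counts have no background. Fbln1 was called lower in the averaged comparison by DESeq2 (-0.60) and limma voom (-0.75), and neither tool called a member lower on a diet alone.

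Fold changes leaned to one side beyond those calls. The log2 fold change was positive for 33 of 35 members on the adequate diet, with a median of 0.42 against 0.0056 over all genes tested. It was positive for 30 of 35 on the supplemented diet (median 0.33 against 0.0071) and for 31 of 35 averaged over both diets (median 0.36). At an unadjusted p under 0.05 stood 14 members higher and 1 lower on the adequate diet, and 10 higher and 0 lower on the supplemented diet. Over all genes that threshold took in 4862 and 4853 of 16558. As shares these were 42.9% of members against 29.4% of all genes on the adequate diet. On the supplemented diet they were 28.6% against 29.3%, so the number of members there, with both directions counted, was not above the background. The share of all genes in each direction at that threshold is not given here. Without replicate 4 of the irradiated adequate group, the adequate-diet median was 0.14 with 26 of 35 positive, Dcn and Timp1 were the 2 members still called, and the averaged response called 8 members with a median of 0.23. Both of these counts include Timp1, which the filter kept through irradiated libraries alone. The share of all genes called in that fit is not given here, so the counts cannot be set against a background.

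**Figure D2:**
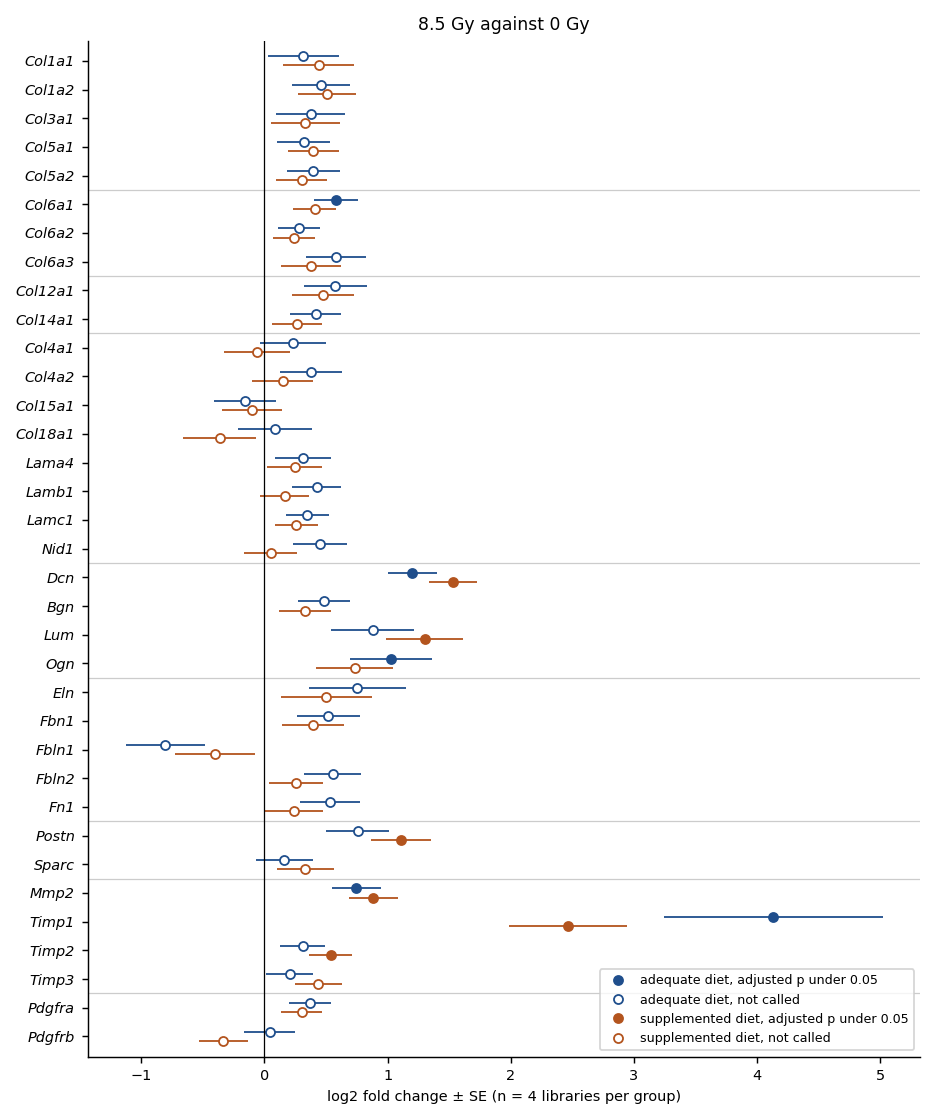
Log2 fold change of 8.5 Gy against 0 Gy (x axis) with its standard error for each gene (y axis, grouped by role), 4 libraries per group. Filled points passed an adjusted p under 0.05. Timp1 has the largest value on both diets, followed by Dcn, and Fbln1 is the gene farthest to the left on both.

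Among the small leucine-rich proteoglycans all 4 were called higher in the averaged response, against 15.7% of all genes. Their median log2 fold change was 0.99. Dcn encodes decorin, which binds collagen fibrils and growth factors. On the adequate diet its libraries were at 62.1, 61.3, 62.4 and 71.0 CPM without and 179, 142, 104 and 165 CPM with irradiation. The supplemented libraries were at 67.8, 94.3, 104 and 57.0 CPM without and 283, 223, 249 and 181 CPM with irradiation. The groups did not overlap on either diet. The log2 fold change was 1.20 ± 0.20 (SE, n = 4 per group; adjusted p = 0.0011, edgeR) on the adequate diet and 1.53 ± 0.20 (adjusted p = 0.000164) on the supplemented diet. Without replicate 4 of the irradiated adequate group it was 1.14 ± 0.21 on the adequate diet (adjusted p = 0.00233).

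Lum encodes lumican, a keratan sulphate proteoglycan of collagen fibrils. It stood at 3.45, 7.51, 3.92 and 7.99 CPM without and 9.61, 11.6, 6.66 and 16.5 CPM with irradiation on the adequate diet. The supplemented libraries held 4.39, 9.77, 11.8 and 6.65 CPM of it without and 23.2, 16.4, 22.7 and 18.7 CPM with irradiation. The groups overlapped on the adequate diet and stood apart on the supplemented diet, where the log2 fold change was 1.3 ± 0.31 (adjusted p = 0.0111, edgeR), against 0.88 ± 0.34 on the adequate diet (adjusted p = 0.0906). With irradiated replicate 4 left out, the adequate-diet value was 0.56 ± 0.34. Lum was a low-count gene, with 9 counts in the shallowest library.

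Ogn, osteoglycin, is another member of this family. Its adequate-diet libraries had 3.07, 5.48, 7.11 and 6.09 CPM without and 9.82, 7.88, 6.55 and 20.9 CPM with irradiation. Its supplemented-diet libraries had 5.54, 9.46, 11.5 and 6.75 CPM without and 14.7, 12.1, 15.6 and 13.2 CPM with irradiation. The call stood on the adequate diet (log2 1.03 ± 0.33, adjusted p = 0.0488, edgeR), where the groups overlapped, and not on the supplemented diet (0.73 ± 0.31, adjusted p = 0.127), where they did not. Without replicate 4 of the irradiated adequate group, the adequate-diet value was 0.50 ± 0.27 (adjusted p = 0.219).

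Bgn encodes biglycan, a close relative of decorin. Without irradiation it was at 93.6, 106, 99.0 and 131 CPM on the adequate and 139.7, 191, 201 and 112 CPM on the supplemented diet. With irradiation it was at 144, 136, 105 and 216 CPM and at 219, 168, 222 and 199 CPM. Doses overlapped on both diets, and the averaged log2 fold change was 0.41 ± 0.15 (adjusted p = 0.0485, edgeR), a call that 14 of 23 alternative settings ended. It was 0.29 without replicate 4 of the irradiated adequate group (adjusted p = 0.105).

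The protease Mmp2 and the TIMP inhibitors held 3 called members of 4 in the averaged response, against 15.7% of all genes called higher. Timp1 is counted among them, although the filter kept it through irradiated libraries alone. Mmp2, a gelatinase that also cuts basement membrane collagen, was at 47.2, 51.7, 56.3 and 69.1 CPM without and 83.3, 85.9, 78.5 and 129 CPM with irradiation on the adequate diet. In the supplemented groups its level was 54.4, 72.1, 96.5 and 52.8 CPM without and 132, 110.0, 149 and 117 CPM with irradiation. All irradiated libraries lay above all unirradiated ones within each diet. The log2 fold change was 0.75 ± 0.20 (adjusted p = 0.0213, edgeR) and 0.88 ± 0.20 (adjusted p = 0.00732). The adequate-diet call was lost without replicate 4 of the irradiated group (0.55 ± 0.19, adjusted p = 0.0614), and also without unirradiated replicate 1 (0.68) or 2 (0.71).

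Timp1, an inhibitor of metalloproteinases that is induced in many kinds of tissue injury, had at most 5 counts in any unirradiated library. The adequate libraries held 0, 1, 1 and 0 counts of it without and 13, 5, 7 and 15 counts after irradiation. The supplemented libraries held 2, 5, 2 and 2 counts of it without and 3, 26, 25 and 18 counts after irradiation. In CPM the unirradiated groups ran from 0 to 0.103 and from 0.196 to 0.514, and the irradiated groups from 0.717 to 2.07 and from 0.880 to 1.75, without overlap on either diet. Pooled over a group, the ratio of irradiated to unirradiated level was 20.3 on the adequate diet (2 against 40 counts, 95% interval 5.26 to 173 from counting error alone) and 6.00 on the supplemented diet (11 against 72 counts, 3.16 to 12.5). The fitted log2 fold changes were 4.13 ± 0.89 and 2.47 ± 0.48, for a gene that the filter kept through its irradiated libraries. At the depth of the shallowest library a count of 0 allows a level up to 1.15 CPM.

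Timp2, which also takes part in activating the Mmp2 protein, was at 22.6, 23.8, 24.0 and 32.1 CPM without and 34.5, 25.3, 23.9 and 42.6 CPM with irradiation on the adequate diet. On the supplemented diet it was at 22.3, 30.2, 32.7 and 25.8 CPM without and 45.5, 37.8, 42.6 and 36.0 CPM with irradiation. The groups overlapped on the adequate diet and stood apart on the supplemented diet (log2 0.54 ± 0.17, adjusted p = 0.0471, edgeR), and 8 of 16 alternative settings ended that call. On the adequate diet the value was 0.31, and 0.12 with irradiated replicate 4 left out. Timp3, the inhibitor that binds to the matrix itself, did not pass, with 0.20 ± 0.19 and 0.44 ± 0.19. Timp3 shares exon bases with Syn3 on the opposite strand, and whether the counting used strand is not given in the sources used here.

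Postn, periostin, a matricellular protein that is made in remodelling tissue, was called on the supplemented diet. Its libraries there had 11.9, 18.9, 23.5 and 14.3 CPM without and 49.3, 31.6, 38.6 and 30.2 CPM with irradiation. The adequate libraries had 10.7, 11.6, 12 and 18.6 CPM without and 23.7, 27.0, 14.0 and 27.6 CPM with irradiation. The groups stood apart on the supplemented diet (log2 1.11 ± 0.24, adjusted p = 0.00668, edgeR), and replicate 3 alone of the irradiated adequate libraries fell within the unirradiated range (0.76 ± 0.26, adjusted p = 0.0607, and 0.63 ± 0.28 with irradiated replicate 4 left out). Averaged over both diets Postn rose by 0.93 ± 0.18 (adjusted p = 0.000992).

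Sparc, the other matricellular gene, binds collagen and calcium and was the member with the highest mean level per kilobase of transcript (96.7 CPM per kb). Its libraries were at 99.7, 103, 83.4 and 112 CPM without and 96.9, 78.4, 80.0 and 187 CPM with irradiation on the adequate diet. The supplemented libraries were at 108, 123, 146 and 95.6 CPM without and 142, 122, 154 and 177 CPM with irradiation. The groups overlapped on both diets, with log2 fold changes of 0.16 ± 0.23 and 0.33 ± 0.23 that did not pass. Without replicate 4 of the irradiated adequate group the adequate-diet value was -0.22.

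**Figure D3:**
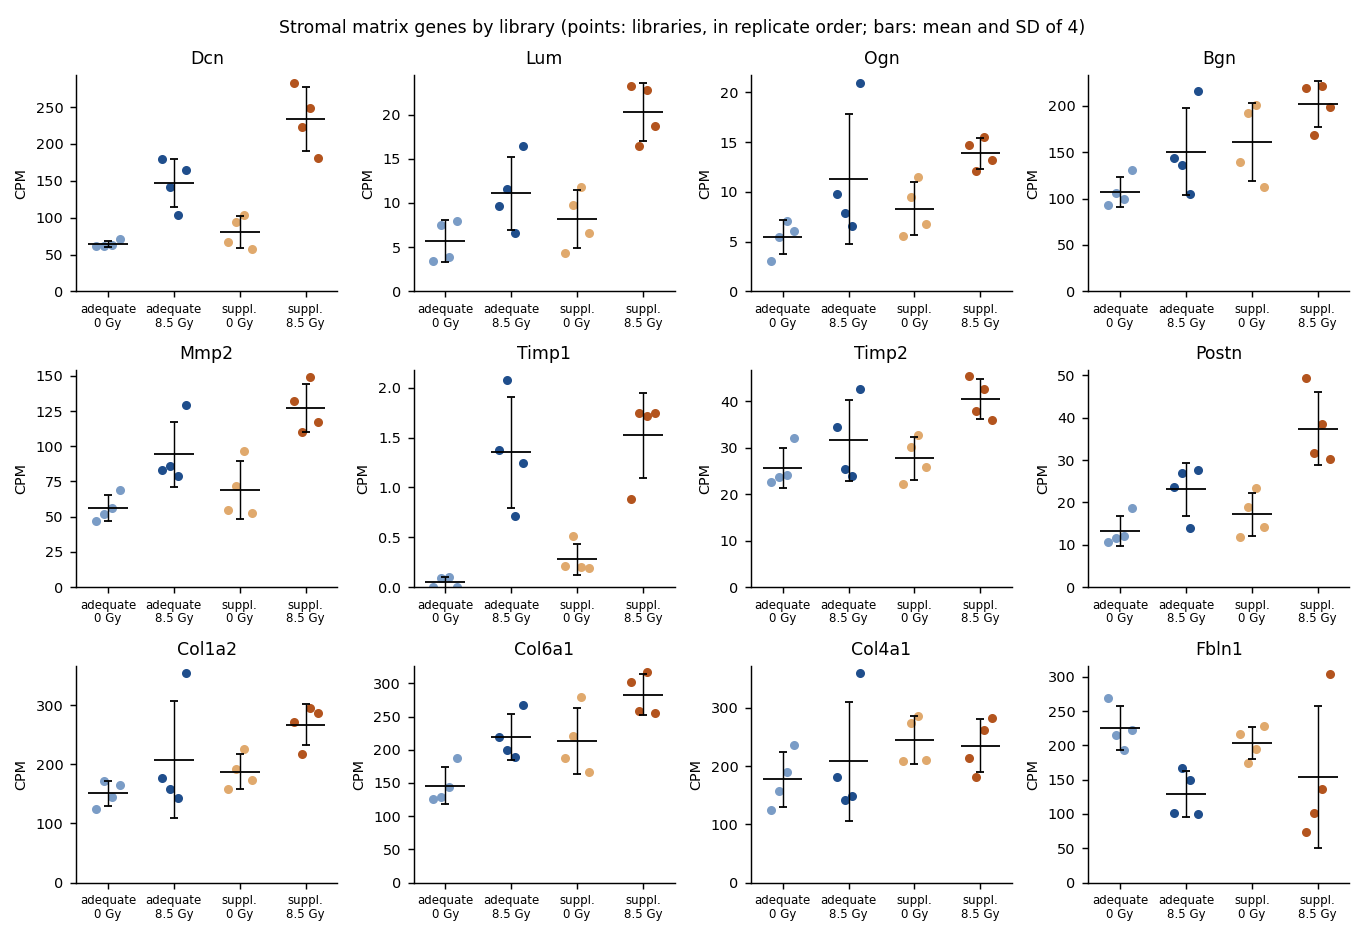
Level in CPM (y axis, starting at 0) of 12 of the 35 genes in each library (points, in replicate order) by group (x axis), with the mean and SD of 4 libraries. Dcn, Mmp2 and Timp1 lie higher in every irradiated library than in any unirradiated library of the same diet, whereas Col1a2 and Col4a1 overlap between doses on both diets.

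The fibrillar collagens form the cable-like fibres of the gut wall. All 5 members had positive log2 fold changes on both diets, between 0.30 and 0.51. None was called on either diet alone, where 7.13% (adequate) and 8.03% (supplemented) of all genes were called higher. With replicate 4 of the irradiated group left out, the adequate-diet values ran from -0.19 to 0.08. Col1a2, the alpha 2 chain of collagen I, was at 125, 171, 145 and 164 CPM without and 177, 158, 142 and 355 CPM with irradiation on the adequate diet. The supplemented libraries had 158, 192, 227 and 174 CPM without and 271, 217, 295 and 286 CPM with irradiation. Its averaged value passed (0.48 ± 0.17, adjusted p = 0.0349, edgeR), but not without replicate 4 of the irradiated adequate group (0.29, adjusted p = 0.0504). That library alone lay above the unirradiated range by a wide margin on the adequate diet.

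Col1a1, the alpha 1 chain of collagen I, did not pass. It was at 136, 182, 188 and 198 CPM without and 193, 136, 132 and 413 CPM with irradiation in the adequate groups, and at 218, 224, 262 and 215 CPM against 266, 245, 363 and 371 CPM in the supplemented groups. Col3a1, the collagen of thin reticular fibres, had 241, 309, 333 and 382 CPM without and 336, 284, 261 and 759.7 CPM with irradiation on the adequate diet. Its supplemented libraries had 379.8, 479, 537 and 388 CPM against 512, 443, 645 and 643 CPM. Both genes overlapped between doses on both diets, and both had negative adequate-diet values without replicate 4 of the irradiated group (-0.19 for Col1a1 and -0.11 for Col3a1, against 0.32 and 0.37 with it). Col5a1 and Col5a2, which start and limit fibril growth, had averaged values of 0.36 ± 0.15 and 0.35 ± 0.15 that did not pass (0.22 and 0.19 with that library left out).

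Collagen VI, which forms beaded filaments near cells, had 2 of 3 chains called higher in the averaged response, against 15.7% of all genes. Col6a1 was at 126, 128, 143 and 187 CPM without and 219, 199.6, 189 and 267 CPM with irradiation on the adequate diet. Its supplemented libraries were at 187, 221, 279 and 166 CPM and at 302, 258, 317 and 255 CPM. The adequate groups stood apart, though by a narrow gap (0.58 ± 0.18, adjusted p = 0.0388, edgeR), and 8 of 16 alternative settings ended that call, while the averaged value of 0.49 ± 0.13 (adjusted p = 0.00685) passed in all 23.

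Col6a3 was at 90.5, 104, 135 and 151 CPM without and 145, 151, 130.4 and 291 CPM with irradiation on the adequate diet. Its supplemented libraries had 154, 179.7, 214 and 151 CPM against 197, 181, 239 and 290.3 CPM. Doses overlapped on both diets, and the averaged value was 0.48 ± 0.17 (adjusted p = 0.0424, edgeR). That call was lost in 12 of 23 alternative settings. Col6a2 had 0.26 ± 0.12, which did not pass.

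Col12a1 and Col14a1 encode collagens that decorate the surface of fibrils. Col12a1 was at 53.7, 53.9, 41.7 and 61.8 CPM without and 59.9, 73.0, 53.6 and 127 CPM with irradiation on the adequate diet. In the supplemented groups it was at 62.9, 77.5, 94.2 and 48.0 CPM against 93.9, 75.5, 104 and 119 CPM. It overlapped between doses on both diets and passed in the averaged response (0.52 ± 0.18, adjusted p = 0.0361, edgeR). The averaged values of Col6a3 (0.31, adjusted p = 0.0887) and Col12a1 (0.35, adjusted p = 0.0716) did not pass without replicate 4 of the irradiated adequate group. Col14a1 had 0.34 ± 0.15 and did not pass (0.22 with that library left out).

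None of the 8 basement membrane genes was called in any comparison, including the averaged response. That response called 15.7% of all genes higher and 15.3% lower, and the count of 8 was not tested against these shares. Their averaged log2 fold changes ran from -0.14 to 0.30, with a median of 0.26. Col4a1, a chain of the collagen IV network, was at 125, 158, 190.4 and 236 CPM without and 182, 141, 149 and 359.8 CPM with irradiation on the adequate diet. On the supplemented diet it was at 209, 273, 286 and 209.7 CPM without and 214, 181, 261 and 283 CPM with irradiation. The groups overlapped throughout, and the log2 fold changes were 0.23 ± 0.27 and -0.06 ± 0.27. The direction of the adequate-diet value turned on irradiated replicate 4, since leaving it out gave -0.17 ± 0.21. The other chain, Col4a2, had 0.38 ± 0.25 and 0.15 ± 0.25, and 0.10 ± 0.23 in place of 0.38 with that library left out.

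Col15a1 and Col18a1 encode the collagens whose ends can be released as restin and endostatin. Col15a1 had -0.16 ± 0.25 and -0.10 ± 0.25, and Col18a1 had 0.09 ± 0.30 and -0.36 ± 0.30 on the adequate and supplemented diets. The laminin chains Lama4, Lamb1 and Lamc1 had averaged values of 0.28 ± 0.16, 0.29 ± 0.14 and 0.30 ± 0.12, and Nid1, the nidogen that links laminin to collagen IV, had 0.25 ± 0.15. None of these values passed. With irradiated adequate replicate 4 left out, the adequate-diet values of Col15a1 and Col18a1 were -0.55 and -0.40 and the averaged values of Lama4, Lamb1, Lamc1 and Nid1 were 0.12, 0.15, 0.19 and 0.11, again without a call.

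The 5 elastic fibre and adhesive glycoproteins held no call, where the averaged response called 15.7% of all genes higher and 15.3% lower. Fn1, fibronectin, which cells grip through integrins, was at 167, 192, 201 and 282 CPM without and 265, 259, 212 and 483 CPM with irradiation on the adequate diet. Supplemented libraries had 287, 361, 415 and 235 CPM against 348, 355, 444 and 381 CPM. The groups overlapped on both diets, with 0.53 ± 0.24 and 0.24 ± 0.24. The first of these was 0.22 ± 0.20 with irradiated replicate 4 left out. Elastin (Eln, 0.63 ± 0.27), fibrillin 1 (Fbn1, 0.46 ± 0.18) and fibulin 2 (Fbln2, 0.41 ± 0.16) had positive averaged values that did not pass, and that were 0.30, 0.31 and 0.34 with that library left out.

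Fbln1, fibulin 1, a glycoprotein of elastic fibres and basement membranes, was the member with the lowest fold change on both diets. On the adequate diet it was at 269, 216, 193 and 223 CPM without and 102, 166, 149 and 99.6 CPM with irradiation, so that the groups stood apart with the irradiated libraries lower. On the supplemented diet it was at 216, 174, 194 and 228 CPM without and 73.1, 101, 136 and 304 CPM with irradiation. There 3 irradiated libraries lay below all unirradiated ones and replicate 4 lay above them. The log2 fold changes were -0.80 ± 0.32 (adjusted p = 0.111, edgeR) and -0.40 ± 0.32 (adjusted p = 0.441), and the averaged value was -0.60 ± 0.23 (adjusted p = 0.0567). Without replicate 4 of the irradiated supplemented group, the supplemented-diet value was -0.97 (adjusted p = 0.00441) and the averaged value -0.89 (adjusted p = 0.000224). The averaged value also passed without replicate 2 of the irradiated adequate group (-0.67, adjusted p = 0.0482). Without replicate 4 of the irradiated adequate group the averaged value did not pass (-0.55, edgeR adjusted p = 0.107). The adequate-diet value was then -0.70 (adjusted p = 0.222). Replicate 4 of the irradiated supplemented group also had the highest summed level of the 10 epithelial markers, 9955.2 CPM against 5719.6 to 7640.4 CPM in the other 3, and the part of this in the Fbln1 value was not tested.

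The PDGF receptors mark different stromal cells, Pdgfra the fibroblasts and Pdgfrb mainly the pericytes along vessels and some fibroblasts. Pdgfra was at 84.4, 88.0, 82.9 and 98 CPM without and 109, 102, 86.0 and 159 CPM with irradiation on the adequate diet. Supplemented libraries were at 104, 125, 133 and 93.6 CPM and at 129, 135, 166 and 131 CPM. It overlapped between doses on both diets, and the averaged value of 0.34 ± 0.12 (adjusted p = 0.0399, edgeR) passed, though not in 11 of 23 alternative settings. It was 0.23 (adjusted p = 0.0781) with irradiated adequate replicate 4 left out.

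Pdgfrb was at 29.9, 33.6, 44.2 and 55.5 CPM without and 37.8, 38.2, 36.8 and 56.1 CPM with irradiation on the adequate diet. Its supplemented libraries had 50.6, 69.3, 72.8 and 48.3 CPM against 48.4, 41.0, 59.5 and 42.5 CPM. The groups overlapped on both diets, with 0.04 ± 0.21 (-0.14 with irradiated replicate 4 left out) and -0.33 ± 0.20, neither of which passed. The count of Pdgfrb per 100 counts of Pdgfra within a library went from 45.9 ± 10.7 (mean ± SD, n = 4) in unirradiated to 37.5 ± 3.68 in irradiated libraries of the adequate diet, and was 52.7 ± 3.0 and 34 ± 3.17 on the supplemented diet.

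Ratios within a library do not depend on how libraries were scaled, and they show the members changing unequally. Dcn per 100 counts of Col1a2 was 43.0 ± 5.73 (mean ± SD, n = 4) in unirradiated and 77.7 ± 23.8 in irradiated libraries of the adequate diet. It was 42.6 ± 7.0 and 88.6 ± 19.1 on the supplemented diet. The lowest irradiated library of the adequate diet, at 46.4, lay within the unirradiated range of 35.8 to 49.8. Dcn took 2.06 ± 0.18% of all member counts without and 3.83 ± 0.98% with irradiation in the adequate groups, and 1.90 ± 0.21% and 4.58 ± 1.07% in the supplemented groups. Col4a1 per 100 counts of Col1a2 was 117 ± 24.6 and then 99.6 ± 6.70 in the adequate groups, and 130.2 ± 9.11 and then 87.4 ± 8.54 in the supplemented groups, where the ranges of 121 to 142 and 78.9 to 98.8 did not overlap. Col1a1 per 100 counts of Col1a2 went from 116 ± 10.7 to 101 ± 13.9 in the adequate groups and from 123 ± 10.4 to 116 ± 13.9 in the supplemented groups. Per 100 counts of Col1a2, the means of Mmp2, Postn and Lum rose and that of Fbln1 fell on both diets. These ratios are descriptions without a test, and the Dcn ratio in part restates a call already given.

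Where groups are compared by overlap alone, the irradiated libraries lay above all unirradiated ones for 4 members on the adequate diet (Col6a1, Dcn, Mmp2 and Timp1) and for 7 on the supplemented diet (Dcn, Lum, Ogn, Postn, Mmp2, Timp1 and Timp2). The same held for 9.34% and 9.43% of all genes tested. Timp1 is in both counts although the filter kept it through irradiated libraries alone. In the other direction, 1 member (Fbln1) lay below all unirradiated libraries on the adequate diet and 0 on the supplemented diet. Of 16558 genes, 1679 and 1528 did so.

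Member levels were above those of the adequate diet in value on the supplemented diet, but no member passed the test of diet. Without irradiation 34 of 35 log2 fold changes of supplemented against adequate were positive, with a median of 0.42 against -0.009 over all genes. edgeR's quasi-likelihood test called 0 members higher or lower, against 0.169% and 0.0302% of all genes, and 14 members, all higher, had an unadjusted p under 0.05, as had 1977 of 16558 genes. DESeq2 and limma voom also called 0 members. Fbln1 was the member with a negative value. Leaving out single libraries moved this median between 0.30 and 0.57.

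Without irradiation the diet groups stood apart for Col1a1, Lamb1 and Timp1, 3 of 35 members, against 4.71% of all genes. Col1a1 had 0.38 ± 0.29 and Lamb1 0.51 ± 0.20. Col6a1 had the smallest p of the members, at 0.54 ± 0.18 (adjusted p = 0.232, edgeR). The fitted Timp1 value of 2.03 ± 0.93 rests on 2 counts over the adequate and 11 over the supplemented libraries (adjusted p = 0.303).

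After irradiation 34 of 35 values were again positive, with a median of 0.33, and edgeR called 0 members higher or lower, as it called 0% of all genes in either direction. At an unadjusted p under 0.05 were 5 members, all higher, and 871 of 16558 genes, and DESeq2 and limma voom called 0 members. Dcn and Postn stood apart between the diets, 2 of 35 members, against 1.44% of all genes. Dcn was 0.66 ± 0.20 higher on the supplemented diet (adjusted p = 0.861, edgeR) and Postn 0.70 ± 0.24 (adjusted p = 0.919). Without replicate 4 of the irradiated adequate group the median was 0.64, with Sparc at 0.80 and Col1a1 at 1.02 (adjusted p = 0.183 and 0.176).

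**Figure D4:**
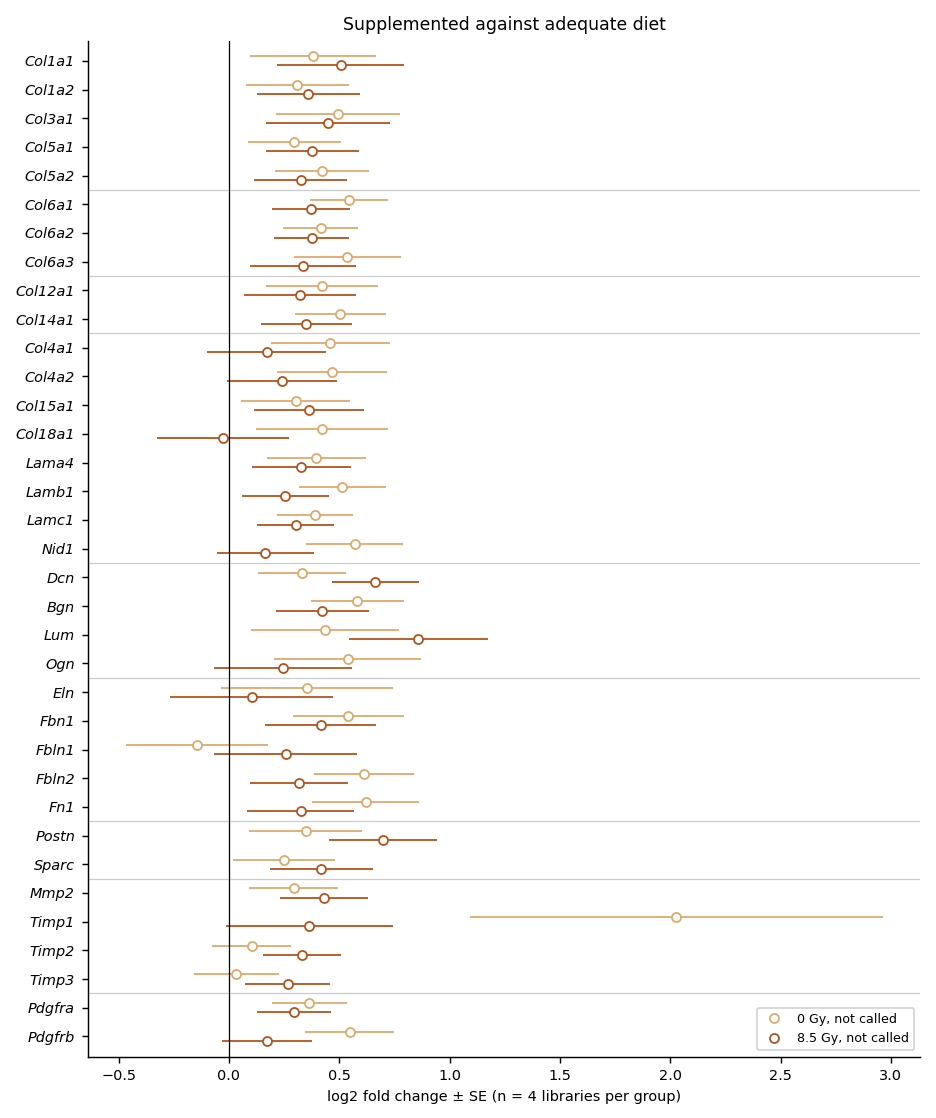
Log2 fold change of the supplemented against the adequate diet (x axis) with its standard error for each gene (y axis), without irradiation and after 8.5 Gy, 4 libraries per group. Open points did not pass an adjusted p under 0.05, and no gene passed; points lie right of 0 for 34 of 35 genes at each dose.

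The diet by radiation interaction, the supplemented-diet response to irradiation less the adequate-diet response, called 0 members in edgeR, DESeq2 or limma voom, and edgeR called 0% of all genes in either direction. No member reached an unadjusted p under 0.05, as 738 of 16558 genes did. Of 35 values 12 were positive, with a median of -0.10. That direction turned on single libraries. The median was 0.19 with 30 positive without replicate 4 of the irradiated adequate group, and 0.05 with 21 positive without replicate 3 of the unirradiated supplemented group. Dcn had 0.33 ± 0.28, with a 95% interval from -0.26 to 0.92, and Timp1 had -1.66 ± 1.01, from -3.79 to 0.46. A call on one diet and not on the other, as for Lum, Postn, Ogn, Col6a1 and Timp2, is therefore no shown difference between diets. In all, 30 of 35 members had their highest group mean in the irradiated supplemented group and 33 their lowest in the unirradiated adequate group. Members with their highest mean elsewhere were Col15a1, Col18a1, Col4a1 and Pdgfrb, in the unirradiated supplemented group, and Fbln1.

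Within groups the members varied together. In the unirradiated adequate group replicate 1, the shallowest library, was the lowest for 26 of 35 members and replicate 4 the highest for 28. In the unirradiated supplemented group replicate 3 was the highest for 32 and replicate 4 the lowest for 25. In the irradiated supplemented group replicate 2 was the lowest for 23. The median coefficient of variation over the members other than Timp1 was 17.8% in the unirradiated and 36.0% in the irradiated adequate group, and 19.4% and 14.3% in the supplemented groups. Dcn was the steadiest member of the unirradiated adequate group, at 7.07%.

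Per kilobase of transcript, using the lengths in the files, members spanned a wide range of levels. Sparc (96.7), Bgn (96.2), Col3a1 (78.4), Fbln1 (77.1) and Dcn (75.4 CPM per kb, means over 16 libraries) were the highest. Dcn went from 36.8 to 84.5 CPM per kb with irradiation on the adequate diet and from 46.3 to 134 on the supplemented diet, where its mean was the highest of the 35. Eln (1.48) and Timp1 (0.946) were the lowest.

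Genes that build or degrade the same matrix were read from lists of known pathway members. Over all genes tested, 7.13% were called higher and 6.58% lower on the adequate diet. On the supplemented diet the shares were 8.03% and 7.21%, and these are the background to the radiation counts of every list below. Of 20 tested proteases and inhibitors outside the members, 7 were called higher and 3 lower on each diet. Their median log2 fold changes were 0.67 on the adequate and 0.40 on the supplemented diet. Mmp9, a gelatinase of neutrophils and macrophages, rose by 2.05 ± 0.20 (log2, adequate diet, edgeR adjusted p = 1.17e-05) and 2.42 ± 0.19 (supplemented, 1.17e-06). Mmp12, the macrophage elastase, rose by 1.02 and 1.47, Mmp19 by 1.19 and 1.33, and Mmp3, a stromelysin, by 2.23 and 2.22, while Mmp23 fell by 1.17 and 1.03.

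Of 26 other stromal matrix genes 5 were called higher and 0 lower on the adequate diet and 6 higher and 1 lower on the supplemented diet. Their medians were 0.30 and 0.36. Lama2, a laminin chain of muscle and stroma, rose by 1.09 ± 0.21 and 1.12 ± 0.21 (edgeR adjusted p = 0.00373 and 0.00223). Aspn, asporin, a relative of decorin, rose by 1.15 and 1.22, and Vcan, the large proteoglycan versican, by 1.16 on each diet. Spon1 rose by 0.80 on the adequate and Tnxb by 0.63 on the supplemented diet.

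The 24 enzymes that process and crosslink collagen had median log2 fold changes of 0.13 on the adequate and 0.06 on the supplemented diet. Of them, 3 were called higher and 1 lower on the adequate diet, and 0 in either direction on the supplemented diet. Lox, the oxidase that starts crosslinking, rose by 1.61 ± 0.39 (edgeR adjusted p = 0.00999), Colgalt1 by 0.44 and Crtap by 0.65, and Plod3, a lysyl hydroxylase, fell by 0.39. The 22 genes of the TGF-beta pathway, a main driver of matrix synthesis, had medians of 0.14 and 0.03. Of them, 4 were higher and 1 lower on the adequate diet and 2 higher and 1 lower on the supplemented diet. Tgfbr3, the co-receptor betaglycan, rose by 0.64 and 0.88 and the inhibitor Ski fell by 0.37 on each diet. Smad4 (0.70) and Thbs1 (0.80) rose on the adequate diet and Smad2 (0.42) on the supplemented diet.

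The ligands of the PDGF receptors moved in both directions. Of 4 ligands, Pdgfc was called higher on the adequate diet (0.97 ± 0.23, edgeR adjusted p = 0.0101). Pdgfb (-0.93 and -0.93) and Pdgfa (-0.69 and -0.76) were called lower on both diets. Of 21 matrix receptors 3 were called higher on the adequate diet, Cd44 (0.99), Itga6 (0.69) and Itga5 (0.50), and 1 on the supplemented diet, Sdc2 (0.78), with 0 lower on either. The receptor medians were 0.28 and 0.24.

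Markers of stromal and other cells moved in part with the members, and their part in the member results was not tested. The 18 tested fibroblast identity genes, which leave out matrix genes, summed to between 359 and 478 CPM without and 502 and 675 CPM with irradiation in the adequate groups, and to between 407 and 545 and between 665 and 832 CPM in the supplemented groups. Of these, 1 was called higher on the adequate diet (C3, a complement gene that other cells also make) and C3 and Vim were called higher and Ly6a lower on the supplemented diet. C3 alone went from a mean of 74.7 to 202 CPM and from 50.9 to 297 CPM. With C3 left out, the other 17 summed to between 313 and 364 CPM without and 328 and 487 CPM with irradiation in the adequate groups, and to between 378 and 478 and between 408 and 479 CPM in the supplemented groups, so that the doses overlapped on both diets. Of the 18 log2 fold changes 16 were positive on the adequate and 10 on the supplemented diet. S100a4 and Twist1 had 0 counts in at least 1 library and did not pass the filter.

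Macrophage genes, 10 in all, summed to between 183 and 226 CPM without and 208 and 309 CPM with irradiation in the adequate groups, and to between 203 and 296 and between 267 and 326 CPM in the supplemented groups, with 2 and 3 genes called higher. Smooth muscle genes had 0 of 12 called higher and 1 lower on each diet, with sums between 1238 and 1599 CPM and between 1092 and 1884 CPM in the adequate groups, and between 972 and 1512 and between 1173 and 1567 CPM on the supplemented diet. Endothelial genes had 0 of 14 called on the adequate diet and 2 higher on the supplemented diet, the lymphatic genes Lyve1 and Prox1, with sums between 280.3 and 365 and between 294 and 418 CPM, and between 332 and 481 and between 351 and 412 CPM. Of the 14 endothelial log2 fold changes 10 were positive and 4 negative on the adequate diet (median 0.15). On the supplemented diet 5 were positive and 9 negative (median -0.17). All 5 red blood cell genes were called lower on both diets. All 10 epithelial markers were detected in every library, with 1 called higher on each diet (Krt18). Of their log2 fold changes 6 were positive and 4 negative on each diet.

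Markers of neighbouring tissues and of minor cell types were read in the same way. Of 10 tested genes of the exocrine pancreas, 8 were called higher on the supplemented diet, among them Clps (colipase, 0.90), Pnlip (3.64), Prss2 (3.17) and Ctrb1 (2.59), and on the adequate diet Clps was called higher (0.55) and Cela2a lower (-1.71). Their sums lay between 20.6 and 42.4 CPM without and 26.6 and 39.7 CPM with irradiation in the adequate groups, and between 16.6 and 20.7 and between 37.2 and 48.7 CPM in the supplemented groups, where the doses did not overlap. Amy2a5, Cel, Cpa1, Cpb1, Pnlip and Prss2 were at 0 in at least 1 library. Of 6 pericyte genes Notch3 was called lower on the supplemented diet (-0.47) and 0 on the adequate diet. Of 3 mesothelium genes Upk3b was called lower on the adequate diet (-1.20) and Msln higher on the supplemented diet (2.18). Of 3 skeletal muscle genes Acta1 was called lower on the adequate diet (-4.03). None of 6 genes of enteric neurons and glia and none of 4 fat genes was called on either diet. The part of these tissues in the member results was not tested.

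**Figure D5:**
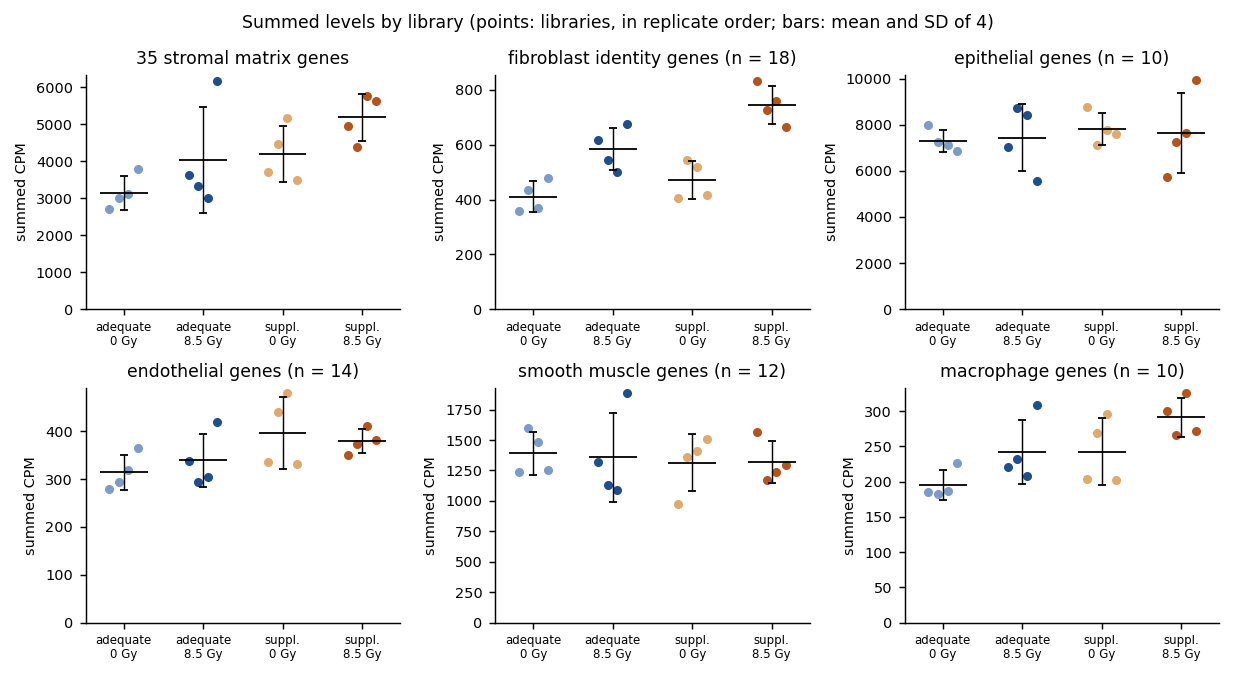
Summed CPM (y axis, starting at 0) of the 35 stromal matrix genes and of 5 sets of marker genes in each library (points, in replicate order) by group, with the mean and SD of 4. The fibroblast identity sums of all irradiated libraries lie above those of all unirradiated libraries of the same diet (502 to 675 CPM against 359 to 478 CPM on the adequate diet), though not once C3 is left out (328 to 487 against 313 to 364 CPM), while smooth muscle and epithelial sums overlap.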

How the data were processed

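The authors' deposited files give RSEM expected counts (estimated counts per gene) with mean transcript lengths, 1 file per library, per the file headers. Libraries were made from fragmented RNA depleted of ribosomal RNA, with a small RNA protocol, per the labels' protocols. The submitters' processing notes name Bowtie2 2.2.9, RSEM 1.3.0, edgeR 3.2.4 and build NCBIM37. Counts were rounded to whole numbers. Symbols came from GENCODE M21, which named 32897 of 37620 genes (87.4%). Groups came from the labels, which name no batch or date. The members and all gene lists were chosen with earlier results of these data known.

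Genes were filtered with filterByExpr, scaled by TMM and fitted over all 16 libraries with edgeR 4.0.16 (robust quasi-likelihood F test, two-sided, R 4.3.3). P-values were Benjamini-Hochberg adjusted over 16558 genes per comparison, with calls at an adjusted p under 0.05. Comparisons were radiation on each diet and averaged over both, diet at each dose, and their interaction. CPM used TMM-scaled totals, and standard errors are those of the fitted log2 fold changes. The common biological coefficient of variation was 0.219. Counts of 2 libraries of a group differed by at least 9.55 times counting error (chi-square per degree of freedom), so none was a copy. The fit was tested on simulated data first. Alternatives were DESeq2 1.42.0, voom of limma 3.58.1, RLE factors, protein-coding library sizes, no filter or at least 1 CPM in 4 libraries, the compared groups alone, libraries above 4 M counts, and each library left out. No member had counts identical to another gene. In GENCODE M21, 11 of 35 members share exon bases with another gene, among the called ones Pdgfra alone, and strand use in counting is not given in the sources used here. Per-library values are given for members called in any comparison and for Col1a1, Col3a1, Col4a1, Fn1, Sparc and Pdgfrb, and, chosen after its values were seen, for Fbln1. From the other pathway lists, the called genes with the 4 smallest p for radiation on each diet are named. From the marker lists only some of the called genes are named. The result of 1 further gene list is not reported here.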

Additional observations from a re-analysis of the deposited data

Results flagged for a closer look

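In 19 of 140 sets of 4 libraries (35 members in 4 groups), a library's gap to the other 3 exceeded Dixon's 95% critical value. Chance gives about 1 in 20 for a single set. Because the members varied together within groups, the 140 sets are not independent and cannot be set against that rate. The irradiated adequate group held 11 of the 19, all with replicate 4 above the other 3. In that library the fibrillar collagens Col1a2, Col3a1 and Col5a2 were at 355, 760 and 86 CPM and Col6a3 at 291 CPM. The basement membrane genes Col15a1, Col18a1, Lama4 and Lamb1 were at 65.1, 183, 91 and 207 CPM. Sparc was at 187 CPM, Mmp2 at 129 CPM and Pdgfrb at 56.1 CPM.

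In the unirradiated adequate group replicate 4 stood above the others for Col6a2 (224 CPM), Dcn (71 CPM), Postn (18.6 CPM) and Timp2 (32.1 CPM). In the unirradiated supplemented group replicate 1 stood below the others for Eln (2.51 CPM) and replicate 2 above them for Timp1 (0.514 CPM, 5 counts). In the irradiated supplemented group replicate 1 stood below the others for Timp1 (0.88 CPM, 3 counts in a library of 3.43 M) and replicate 3 above them for Pdgfra (166 CPM).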

How the results depend on the processing

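The count of members called higher with radiation was 5 on the adequate diet. It was 3 with no filter on low counts, 2 without the libraries under 4 M counts and 3 with the 2 compared groups alone, and leaving out single libraries gave 2 to 7. On the supplemented diet (6 called higher), leaving out single libraries gave 5 to 7. In the averaged response (13), it was 8 without the libraries under 4 M counts and 8 to 19 with single libraries left out. The shares of all genes called in these other fits are not given here, so these counts cannot be set against a background. No member was called lower in the analysis as reported. Fbln1 was the 1 member called lower with the 2 adequate groups alone (-0.77, adjusted p = 0.0307, edgeR), by DESeq2 (1) and limma voom (1) in the averaged response, and with single libraries left out in the supplemented (0 to 1) and averaged (0 to 1) comparisons. No member was called for diet or the interaction under any setting. Among calls of single members, 388 alternative fits kept the call and 85 lost it, without a change of sign. The calls of Dcn and Timp1 on both diets, of Lum, Postn and Mmp2 on the supplemented diet and of 8 members in the averaged response (those 5 with Ogn, Col6a1 and Timp2) passed in every fit that tested them. Timp1 passed the filter through irradiated libraries alone, and did not pass it in fits of the 2 compared groups. Mmp2 on the adequate diet lost its call in 4 of 16, Ogn in 10, Col6a1 in 8, and in the averaged response Col1a2 lost it in 8 of 23, Col12a1 in 10, Col6a3 in 12, Bgn in 14 and Pdgfra in 11. When single libraries were left out, 7 members changed sign on the adequate diet, 3 on the supplemented diet, 1 in the averaged response, 1 and 3 for diet without and after irradiation, and 23 of 35 for the interaction. Depth limits Timp1 most, with 0 to 5 counts per unirradiated library. No paired analysis was possible because the labels give no replicate numbers and the numbers used here follow the order of the samples.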
